A study of Homo sapiens with 2 samples.

Results

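The genes described here are 9 prostate luminal secretory and lineage genes, FOXA1, HOXB13, TMPRSS2, MSMB, KLK2, KLK3, KLK4, CD24 and STEAP2, of the 36601 genes in the single-cell tables, found by their symbols. They were read in 2 single-cell RNA libraries, 1 of RWPE1, an immortalized but non-tumorigenic human prostate epithelial cell line labelled as the vector only control, and 1 of RWPE-ERG-mAKT, the same line with exogenous ERG and myristoylated AKT (mAKT), a membrane-bound and constitutively active AKT. ERG, the ETS transcription factor switched on by gene fusion in many prostate cancers, was expressed from a retroviral vector with the HNRNPA2B1 promoter, per the study's methods, and both cultures grew in keratinocyte serum-free medium. The methods describe infected and selected cultures and name no clone, and the study's text calls the RWPE1 cells parental where the label gives a vector control. There was 1 library for each condition, so no difference between conditions could be tested, and the intervals given cover counting error only.

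Luminal cells line the lumen of the prostate gland and secrete seminal proteins, among them the kallikrein proteases and microseminoprotein. Their programme responds to androgen and is held in part by FOXA1, a forkhead pioneer factor that opens chromatin, and HOXB13, a posterior homeobox factor that marks prostate identity. Basal cells lie beneath them and carry KRT5, KRT14 and TP63. The comparison asks whether cells with ERG and active AKT carried more luminal transcripts than RWPE1 cells in culture.

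Cells with over 2500 detected genes and under 7.5% of UMIs (unique molecular identifiers, each standing for 1 captured transcript) from mitochondrial genes were kept. This left 9967 of 12504 RWPE1 barcodes and 14140 of 17355 RWPE-ERG-mAKT barcodes, from a stated input of 10000 cells for each library. The barcodes outnumbered the input cells in both libraries, and doublets were not removed. The kept cells held 192789925 and 225121037 UMIs, with a median of 16972 and 13601 per cell and a median mitochondrial share of 5.44% and 2.73%. The libraries shared 55 barcode sequences, 37 of them kept in both. Of all barcodes, 53 of RWPE1 and 0 of RWPE-ERG-mAKT carried at least 2 UMIs of the microglia genes TYROBP and AIF1 or of the choroid plexus genes TTR, ENPP2, OTX2 and SOSTDC1, summed, and 5 of these passed the filters. The labels fitted the ERG counts, since ERG gave 1.44 CPM (UMIs of a gene per 1000000 UMIs) for RWPE1 against 20.8 CPM for RWPE-ERG-mAKT, while AKT1 stood at 22.0 and 19.1 CPM. Basal keratin KRT5 was at 2081 and 2008 CPM. The simple epithelium keratins KRT18 and KRT7 were at 1198 and 542 CPM and at 2090 and 2662 CPM. Both libraries were thus epithelial, with strong basal and simple epithelium keratin.

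The secretory kallikreins were almost undetected in both libraries. KLK3, which encodes prostate-specific antigen (PSA), gave 1 RWPE1 UMI and none in RWPE-ERG-mAKT, where a count of 0 allows up to 0.0133 CPM. KLK2, its closest relative and a protease that can activate PSA, gave 1 UMI in each library. No fold can be read for either gene. KLK4, a kallikrein of prostate and enamel, gave 5 UMIs from 5 RWPE1 cells and 0 from RWPE-ERG-mAKT, and with the counting error of both libraries the log2 ratio reached up to -0.10. These genes lie together in the kallikrein cluster of chromosome 19, KLK3 at chr19:50854915-50860764 on the plus strand, KLK2 at chr19:50861568-50880567 on the plus strand and KLK4 at chr19:50906352-50910738 on the minus strand (GRCh38, GENCODE 29). In the last 500 bases of their coding transcripts, 0 of the 90-base stretches of KLK2, KLK3 or KLK4 occurred in a transcript of another gene, so identical 3′ ends were not found between these relatives. The read length was not given in the sources used here.

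The promoters of KLK2 and KLK3 are shown because they are textbook androgen-driven promoters and their genes were at the floor of these libraries. Each window runs from 250 bases before to 50 bases after the start in RefSeq on GRCh38.p14, KLK3 at chr19:50854665-50854964 and KLK2 at chr19:50873189-50873488, both on the plus strand. Capitals mark the TATA box letters TATAAA, read on either strand, and the letters AGAACA, an arm of the androgen response element.
KLK3: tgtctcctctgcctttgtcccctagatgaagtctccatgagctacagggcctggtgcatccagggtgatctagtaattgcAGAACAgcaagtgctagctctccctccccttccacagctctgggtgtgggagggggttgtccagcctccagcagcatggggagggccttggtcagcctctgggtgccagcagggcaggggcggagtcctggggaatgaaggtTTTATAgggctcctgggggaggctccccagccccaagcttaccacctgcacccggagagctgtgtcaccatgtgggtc
KLK2: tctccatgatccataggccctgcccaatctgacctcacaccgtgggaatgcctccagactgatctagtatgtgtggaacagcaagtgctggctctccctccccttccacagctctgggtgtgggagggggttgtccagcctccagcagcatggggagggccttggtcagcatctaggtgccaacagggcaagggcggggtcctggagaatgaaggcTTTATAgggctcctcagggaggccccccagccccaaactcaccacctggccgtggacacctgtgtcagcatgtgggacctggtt
The KLK3 window held AGAACA 170 bases before the start and the TATA box letters 28 bases before it. The KLK2 window held the TATA box letters 34 bases before the start and no exact AGAACA. The windows shared a run of 80 bases letter for letter. Among 35116 RefSeq windows of this length, 14.8% held AGAACA and 11.5% held TATAAA on either strand, and the full element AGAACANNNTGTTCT was in 1 window, which belonged to none of these genes. Both KLK4 windows held none of these letters.

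The other 6 genes had at least 10 UMIs over both libraries together and were compared as log2 ratios of CPM, RWPE-ERG-mAKT over RWPE1. More than 2-fold higher were 3 of them, CD24, STEAP2 and MSMB, where 12.5% of 24757 genes measured in this way were more than 2-fold higher. More than 2-fold lower were 2, FOXA1 and TMPRSS2, where 23.5% of all genes were more than 2-fold lower, and HOXB13 was neither. The median log2 ratio of the 6 genes was 0.75, and that of all genes with UMIs in both libraries was -0.22. Scaling by the median of ratios adds 0.22 to each log2 ratio, and the counts of all genes then became 4076 higher and 4462 lower in place of 3086 and 5816, while the 3 higher and 2 lower genes stayed at those counts. The luminal set therefore did not move in a common direction.

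**Figure D1:**
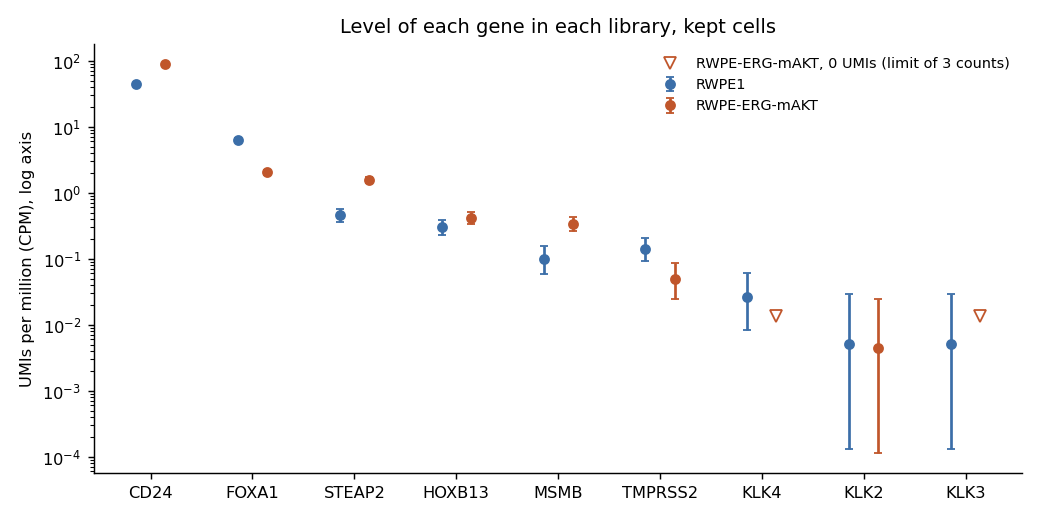
Level of each of the 9 genes in the RWPE1 library (blue) and the RWPE-ERG-mAKT library (orange), as CPM on a log axis with exact Poisson 95% intervals; open triangles mark a count of 0 at the limit of 3 counts. CD24 stood far above the others in both libraries, FOXA1 was lower and STEAP2 higher in RWPE-ERG-mAKT, and the kallikreins lay at or near the limit.

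CD24 was the only abundant gene of the set. It encodes a small, heavily glycosylated surface protein anchored to the membrane by a lipid, used to sort luminal from basal prostate cells, and lies at chr6:106969831-106975627 on the minus strand. RWPE1 gave 8423 CD24 UMIs, or 43.7 CPM (42.8 to 44.6), and RWPE-ERG-mAKT gave 20103, or 89.3 CPM (88.1 to 90.5). The 2 libraries did not overlap within counting error, and the log2 ratio was 1.03 (0.99 to 1.07), just past the 2-fold line. With the mitochondrial UMIs left out of the total it was 0.995, and with each cell scaled to its own total 0.81, both under the line. CD24 lay at percentile 86.7 of the detected genes of RWPE1 and 93.8 of those of RWPE-ERG-mAKT. CD24 has pseudogene copies, and 2.60% of the 90-base stretches at the ends of its coding transcripts also occurred in CD24P4. Reads lying within those stretches could not be assigned by sequence alone, and their share of the CD24 reads was not measured.

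FOXA1 was the next most abundant. The gene lies at chr14:37589984-37596059 on the minus strand and overlaps TTC6 on the opposite strand. RWPE1 gave 1215 UMIs in 1066 cells, 6.30 CPM (5.95 to 6.67), and RWPE-ERG-mAKT gave 458 in 437 cells, 2.03 CPM (1.85 to 2.23). FOXA1 was thus 3.10-fold lower after ERG and mAKT, with a log2 ratio of -1.63 (-1.79 to -1.47), and the 2 levels did not overlap within counting error. No cell held more than 3 FOXA1 UMIs.

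HOXB13, at chr17:48724763-48729178 on the minus strand, was at a low level in both libraries. It gave 58 RWPE1 UMIs, 0.301 CPM (0.228 to 0.389), and 94 RWPE-ERG-mAKT UMIs, 0.418 CPM (0.337 to 0.511). The intervals overlapped and the log2 ratio of 0.47 (-0.01 to 0.97) reached 0, so a difference was not detectable in the kept cells at this depth. The result sat at the edge of counting error. The interval was 0.04 to 1.01 with 200 or more genes and no upper limit, and 0.05 to 1.01 without the mitochondrial filter.

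STEAP2, a six-transmembrane metalloreductase that reduces iron and copper at the membrane, lies at chr7:90167590-90238137 on the plus strand and overlaps STEAP2-AS1 on the opposite strand. It gave 87 RWPE1 UMIs, 0.451 CPM (0.361 to 0.557), and 346 RWPE-ERG-mAKT UMIs, 1.54 CPM (1.38 to 1.71). The level was 3.41-fold higher after ERG and mAKT, with a log2 ratio of 1.77 (1.43 to 2.12), with no overlap within counting error. The window at its upstream RefSeq start, chr7:90211490-90211789 on the plus strand (GRCh38.p14), is shown because it holds CCGGAA, the core letters bound by ETS factors such as ERG, in capitals 241 bases before the start.
STEAP2: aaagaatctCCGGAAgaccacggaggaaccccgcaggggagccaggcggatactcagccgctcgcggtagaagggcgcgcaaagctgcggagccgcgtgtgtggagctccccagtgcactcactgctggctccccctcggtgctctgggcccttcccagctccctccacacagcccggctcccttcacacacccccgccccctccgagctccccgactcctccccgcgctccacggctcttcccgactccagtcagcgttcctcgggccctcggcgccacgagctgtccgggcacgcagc
These letters were in 17.2% of all windows on either strand, and the files hold no ERG binding data. A downstream STEAP2 window held no CCGGAA, and held TATAAA and the forkhead letters TGTTTAC, the latter present in 3.42% of all windows. The FOXA1 window held none of the letters searched, and of 3 CD24 windows 1 held AGAACA and 1 held CCGGAA. HOXB13, TMPRSS2 and MSMB are named here without a promoter sequence.

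MSMB encodes beta-microseminoprotein, a small secreted protein of seminal plasma, at chr10:46033307-46046269 on the minus strand. It gave 19 UMIs in 16 RWPE1 cells, 0.0986 CPM (0.0593 to 0.154), and 76 in 63 RWPE-ERG-mAKT cells, 0.338 CPM (0.266 to 0.423). The log2 ratio was 1.78 (1.04 to 2.58), and a single RWPE1 cell held 15.8% of that library's MSMB UMIs. Over all kept cells the gene was higher in RWPE-ERG-mAKT, but 63 of 14140 cells is 0.446% of the library, and low counts set these values.

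TMPRSS2 encodes an androgen-driven transmembrane serine protease whose promoter is the usual fusion partner of ERG, at chr21:41464551-41531116 on the minus strand. It gave 27 UMIs in 27 RWPE1 cells, 0.140 CPM (0.0923 to 0.204), and 11 in 10 RWPE-ERG-mAKT cells, 0.0489 CPM (0.0244 to 0.0874). The log2 ratio was -1.52 (-2.68 to -0.46), again from low counts. In order of level, CD24 was followed by FOXA1, STEAP2, HOXB13, TMPRSS2 and MSMB in RWPE1 and by FOXA1, STEAP2, HOXB13, MSMB and TMPRSS2 in RWPE-ERG-mAKT, with the kallikreins last in both. The UMI counts 3′ ends and was not divided by length. Neighbours that overlapped within counting error were HOXB13 with STEAP2 and TMPRSS2 with MSMB and MSMB with KLK4 in RWPE1, and MSMB with HOXB13 and TMPRSS2 with KLK2 in RWPE-ERG-mAKT, and the kallikreins overlapped each other.

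The share of cells with a UMI was read after each cell was thinned at random to 5000 UMIs, which left out 0 RWPE1 cells and 6 RWPE-ERG-mAKT cells. CD24 was found in 16.8% of the RWPE1 cells (16.0 to 17.5, exact binomial interval) and 25.9% of the RWPE-ERG-mAKT cells (25.1 to 26.6). Without thinning the shares were 44.3% and 48.0%, and the gap was narrower on that scale, where RWPE1 cells were deeper. FOXA1 was found in 2.75% (2.44 to 3.09) and 0.983% (0.827 to 1.16) of cells, against 10.7% and 3.09% without thinning. STEAP2 was found in 0.241% (0.154 to 0.358) and 0.906% (0.756 to 1.08), and 0.823% and 2.36% without thinning. At this depth, therefore, 2 genes in RWPE1 and 1 in RWPE-ERG-mAKT reached 1% of cells.

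The remaining genes were found in very few cells. HOXB13 was seen in 11 and 32 thinned cells, 0.110% (0.0551 to 0.197) and 0.226% (0.155 to 0.319), MSMB in 6 and 27, and TMPRSS2 in 9 and 5. KLK4 was seen in 3 RWPE1 cells and KLK3 in 1, and neither in any of 14134 RWPE-ERG-mAKT cells, where a count of 0, taken as the limit of 3 counts, still allows 0.0212%. KLK2 was seen in 0 cells of either library, which allows up to 0.0301% in RWPE1. In genes with so few UMIs per cell, fewer cells with the transcript and fewer copies in each cell cannot be told apart.

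Transcripts free in the droplets can give UMIs in cells that do not make them. The 53 RWPE1 barcodes with at least 2 UMIs of microglia or choroid plexus genes had a median of 617 UMIs. A CD24 UMI was in 3 of them (5.66%, 1.18 to 15.7) and a FOXA1 UMI in 2 (3.77%, 0.460 to 13.0). None held the other 7 genes, for which the limit of 3 counts in 53 barcodes is 5.66%. All of these CD24 and FOXA1 barcodes were among the 5 that passed the cell filters. Kept cells with CD24 numbered 4419 with those 5 and 4416 without, and kept cells with FOXA1 1066 and 1064. The barcodes that failed the filters held neither gene, so these shares do not gauge free transcripts. The unthinned kept RWPE1 cells, without those barcodes, stood at 44.3% for CD24 and 10.7% for FOXA1 at a median of 16972 UMIs for the library. The depths are far apart and RWPE-ERG-mAKT had no barcode at that threshold, so the shares of the scarce genes were not told apart from background. Of 20 genes of other organs, such as ALB and INS, 10 and 9 were at 0 UMIs in the 2 libraries, and 1 RWPE1 cell held 153 of the 154 HBB UMIs of that library. After HBB the highest was MYL2, at 0.550 and 0.369 CPM.

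**Figure D2:**
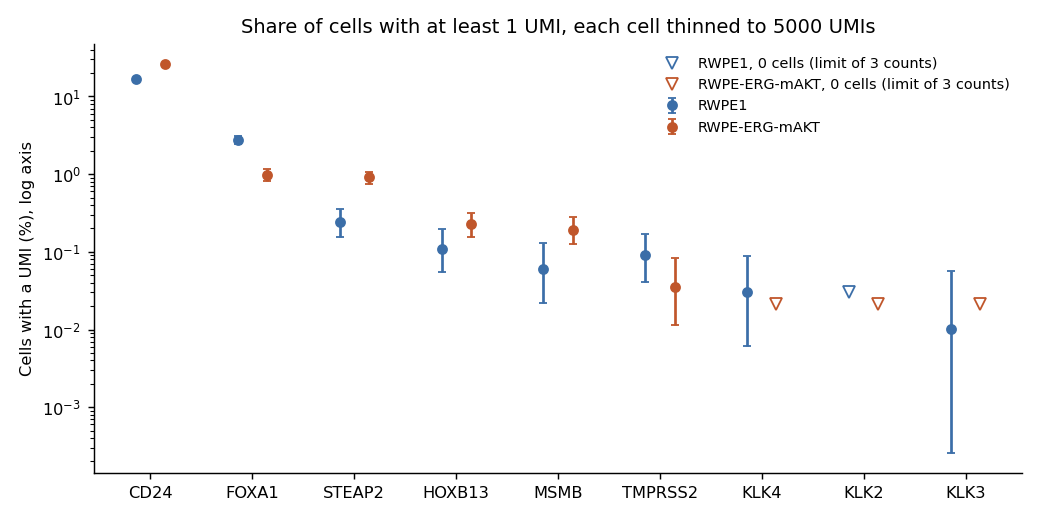
Share of cells with at least 1 UMI of each gene after thinning to 5000 UMIs per cell, in percent on a log axis with exact binomial 95% intervals, RWPE1 in blue and RWPE-ERG-mAKT in orange; open triangles mark 0 cells at the limit of 3 counts. CD24 was found in 16.8% and 25.9% of cells, FOXA1 in 2.75% and 0.983%, and all others in under 1%.

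Few cells held more than 1 of the genes. After thinning, 80.6% of RWPE1 cells and 72.4% of RWPE-ERG-mAKT cells held none of the 9 transcripts, and 18.7% and 27.0% held exactly 1 of the genes. A further 66 and 80 cells held 2 of the genes, and 2 and 3 cells held 3, the most seen. FOXA1 and CD24 were found together in 49 RWPE1 cells, where 45.9 would fall together if they were independent, and in 32 RWPE-ERG-mAKT cells, where 35.9 would. CD24 and STEAP2 were found together in 33 RWPE-ERG-mAKT cells against 33.1, and FOXA1 and STEAP2 in 3 against 1.26. In the 30 RWPE1 cells with 5 or more CD24 UMIs, FOXA1 gave 16.7 UMIs per 100 cells (5.41 to 38.9, from 5 UMIs), where cells without CD24 gave 2.78 (2.44 to 3.17). Doublets were not removed and can add to the joint counts.

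Whether a cell showed an ERG UMI made no detectable difference. In RWPE-ERG-mAKT, 1250 thinned cells held an ERG UMI and 12884 did not. CD24 gave 375 UMIs per 1000 cells with ERG and 412 without, a log2 ratio of -0.14 (-0.27 to 0.00), and FOXA1 gave 10.4 and 10.0. The counting intervals of all 6 measured genes reached 0. A cell without an ERG UMI is not a cell without ERG, since ERG itself was found in 23.9% of the unthinned cells.

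The libraries differed in detected genes and in mitochondrial share, so the levels were read in bands of cells. FOXA1 was lower in RWPE-ERG-mAKT in all 5 bands of detected genes, with log2 ratios from -1.12 to -2.02, and in all 4 bands of mitochondrial share, from -1.44 to -2.08, the lowest of which held 3 RWPE1 UMIs. STEAP2 was higher in all 5 bands of detected genes, from 0.88 to 3.04. In the lowest of these bands its interval (-0.24 to 2.25) reached 0. By mitochondrial share STEAP2 had 0 RWPE1 UMIs in the lowest band and log2 ratios from 1.70 to 2.39 in the other 3. The ratio of 1.70 came from 2 RWPE1 UMIs, and its interval (-0.18 to 4.76) reached 0. MSMB had a log2 ratio of -0.75 (-2.14 to 0.87) in the lowest band of detected genes, from 6 RWPE1 and 18 RWPE-ERG-mAKT UMIs. In the higher bands of detected genes its ratios ran from 1.40 to 2.82, also from few UMIs.

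CD24 was different. In cells with 2501 to 3499 detected genes it stood at 71.7 CPM (65.7 to 78.1) among RWPE1 cells and 71.0 CPM (68.3 to 73.8) among RWPE-ERG-mAKT cells, with a log2 ratio of -0.01 (-0.15 to 0.12). In cells with 4500 to 5499 genes the levels were 41.1 and 90.8 CPM, which gives a log2 ratio of 1.14 (1.08 to 1.21). In the band of 5500 to 6499 genes the ratio was 1.36 (1.29 to 1.44). CD24 was thus highest in the RWPE1 cells with the fewest genes and higher in the RWPE-ERG-mAKT cells with many. By mitochondrial share the CD24 log2 ratio was 0.70 (0.15 to 1.32) under 1%, from 27 RWPE1 UMIs. It was 0.44 (0.27 to 0.62) from 1% to under 2.5%, under the 2-fold line. From 2.5% to under 5% it was 0.96 (0.90 to 1.02), and from 5% to under 7.5% it was 1.09 (0.979 to 1.205). Among barcodes with 200 to 2500 genes, the window named in the study's methods, the direction turned, with 162 CPM in 362 RWPE1 cells and 84.3 CPM in 2775 RWPE-ERG-mAKT cells, which gives a log2 ratio of -0.94 (-1.20 to -0.67). In cells matched on both measures, with 2.5% to under 5% mitochondrial UMIs and 3500 to under 5500 genes, a choice made after the data were seen, the log2 ratio was 0.86.

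**Figure D3:**
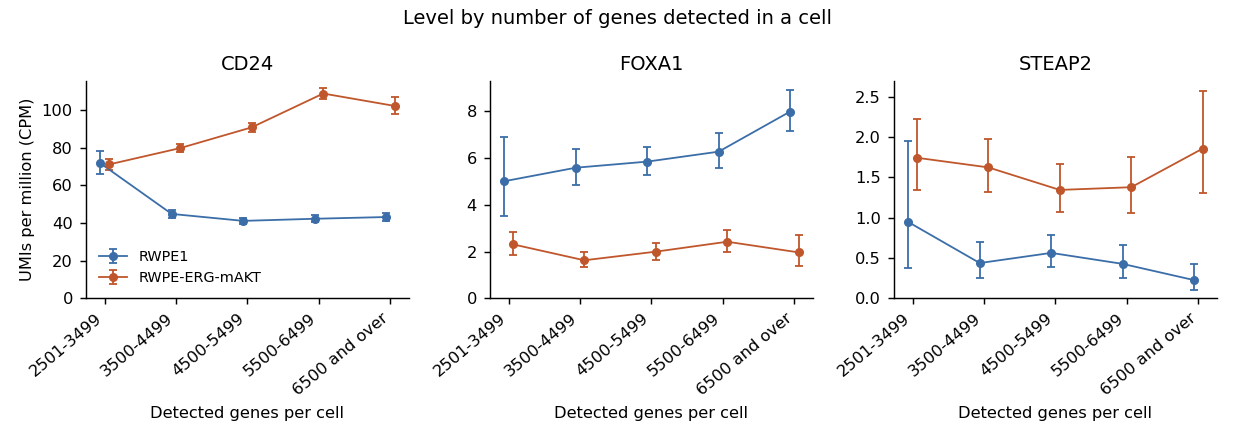
Levels of CD24, FOXA1 and STEAP2 in CPM against the number of genes detected in a cell, in 5 bands, for RWPE1 (blue) and RWPE-ERG-mAKT (orange), with exact Poisson 95% intervals. The CD24 curves meet in the lowest band (71.7 and 71.0 CPM) and part above it, whereas FOXA1 is lower and STEAP2 higher in RWPE-ERG-mAKT in every band.

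CD24 UMIs were spread less evenly over cells than those of most genes with a similar mean. At 5000 UMIs per cell, 83.2% of RWPE1 cells and 74.1% of RWPE-ERG-mAKT cells held 0, 14.0% and 17.7% held 1, and 12 and 7 cells held 10 or more. The variance over the mean was 2.49 and 2.05, where the median of genes with a similar mean (within 1.25-fold) was 1.04 and 1.07. Only 7 of 1610 such genes in RWPE1 lay above CD24, S100A8 and PI3 leading, and 6 of 932 in RWPE-ERG-mAKT, KRT16 leading. FOXA1, by contrast, had values of 1.02 and 1.03, near those of genes with its mean.

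Genes of epidermis and innate defence stood first among those whose levels went with CD24. Among 10290 genes with enough UMIs, those with the highest ratio between cells with and without CD24, taking the smaller of the 2 libraries, were S100A7, A2ML1, ADGRF1, S100A8 and KLK5. S100A7 (psoriasin) had log2 ratios of 5.84 and 4.71, in the order RWPE1 and RWPE-ERG-mAKT, and A2ML1, a protease inhibitor of stratified epithelium, 2.82 and 2.75. KLK5, a kallikrein of skin shedding, had 1.59 and 1.79. Summed over lists, kallikreins other than the 3 above had log2 ratios of 1.43 and 2.44, hillock and club cell genes (KRT13, KRT4, S100A8 and the like) 1.53 and 0.57, and squamous genes 0.74 and 0.26. The other secretory products of prostate, a list that holds SLPI and LCN2, had 2.02 and 0.95. The 8 other genes of the set, summed, had 0.41 (0.01 to 0.79) and -0.12 (-0.50 to 0.24). The simple epithelium keratins KRT7, KRT8, KRT18 and KRT19 had -0.04 and 0.15 and the basal genes 0.09 and 0.16. Cells with and without CD24 had like mitochondrial shares, at medians of 5.42% and 5.45% in RWPE1 and 2.69% and 2.74% in RWPE-ERG-mAKT.

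The cells richest in CD24, with 5 or more UMIs after thinning, were 30 in RWPE1 and 110 in RWPE-ERG-mAKT. These classes and the genes named in them were chosen after the values were seen. In RWPE1 they held 6023 S100A9 UMIs per 100 cells, 1883 of SLPI, a secreted antiprotease, and 1600 of the hillock keratin KRT13, where cells without CD24 held 14.2, 20.1 and 91.9. The same cells held 387 KRT5 and 6.67 TP63 UMIs per 100 cells, where cells without CD24 held 1066 and 71.1, and 10.0 against 129 UMIs of the mitosis gene TOP2A. The RWPE1 cells rich in CD24 were thus low in basal and dividing-cell transcripts. The simple epithelium keratins were mixed in them. KRT18 was lower, at 180 against 578 UMIs per 100 cells, and so was KRT8, at 83.3 (53.9 to 123) against 223. KRT19 was higher in UMIs, at 687 (596 to 787) against 436. The share of cells with KRT19 was not higher, at 70.0% (50.6 to 85.3) against 80.2%. KRT7 was at 1117 (1000 to 1243) against 1039. They had a median of 10072 UMIs and 3632 genes before thinning, below the 17081 and 4838 of cells without CD24.

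In the RWPE-ERG-mAKT cells rich in CD24, TP63 was at 31.8 (22.2 to 44.3) UMIs per 100 cells against 33.7 (32.6 to 34.9) in cells without CD24, and KRT5 at 955 against 1026. TOP2A was lower, as in RWPE1, at 42.7 (31.4 to 56.8) against 112 (110 to 114). SLPI was at 2646 against 466, KRT19 at 772 against 182, KRT18 at 425 against 258 and KRT8 at 309 against 158. SLPI was found in 109 of the 110 cells and KRT19 in 80 (72.7%, 63.4 to 80.8). S100A7, by contrast, came from 3 of the 110 cells in RWPE-ERG-mAKT and 5 of the 30 in RWPE1, and KLK5 from 5 and 14, so their ratios rest on few cells.

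**Figure D4:**
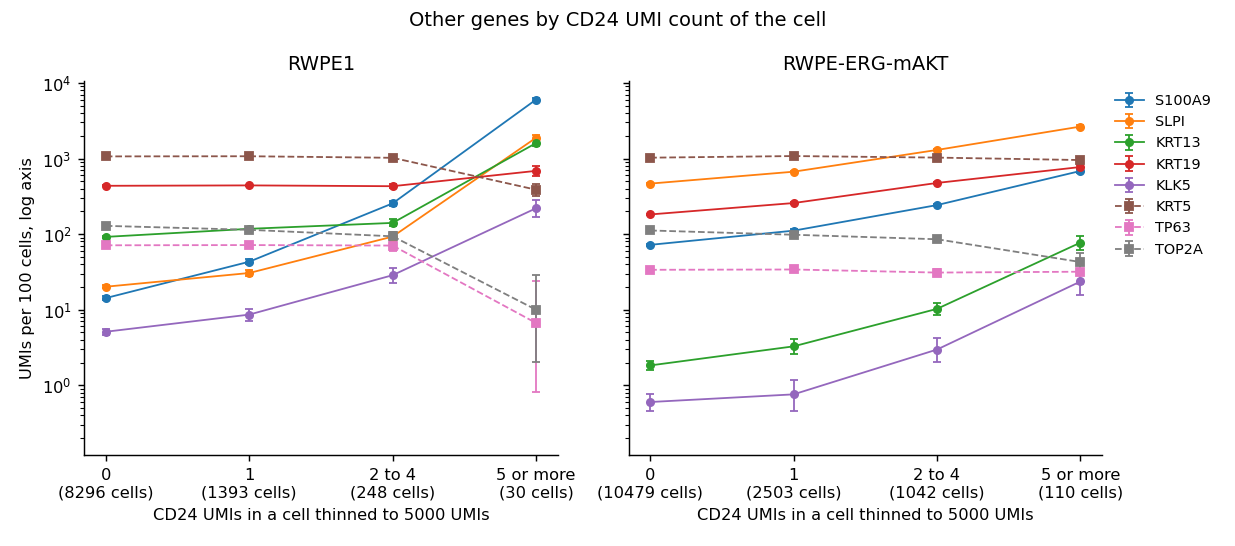
UMIs per 100 cells of 8 genes (log axis, exact Poisson 95% intervals) against the number of CD24 UMIs in a cell thinned to 5000 UMIs, for RWPE1 (left) and RWPE-ERG-mAKT (right). S100A9, SLPI, KRT13, KRT19 and KLK5 (solid lines) are highest in the cells with most CD24 in both libraries, while TP63 is at 6.67 against 71.1 in RWPE1 and at 31.8 against 33.7 in RWPE-ERG-mAKT (dashed lines: KRT5, TP63 and TOP2A).

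The wider androgen-responsive programme showed no common direction. Of 20 genes 6 were more than 2-fold higher, 4 more than 2-fold lower and the median log2 ratio was -0.28, beside -0.22 for all genes. NDRG1, a stress and androgen-responsive gene, had a log2 ratio of 1.13 and ABCC4, a transporter, -0.75. STEAP4, a metalloreductase like STEAP2, had 3.20.

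Of 16 luminal lineage factors 3 were higher and 3 lower, with a median of -0.40. GRHL2, a factor that maintains epithelial junctions, stood at 117 and 37.6 CPM, a log2 ratio of -1.63 like that of FOXA1. XBP1, a factor of secretory cells, had 0.93 and ESRP1, an epithelial splicing regulator, -0.81. The simple epithelium keratins had 0 of 4 higher and 1 lower, with KRT18 at -1.14, KRT19 at -0.87 and KRT8 at -0.45. KRT7, the most abundant of them, went the other way at 0.35, with 2090 and 2662 CPM. Of 14 basal genes 2 were higher and 3 lower, with TP63 at -1.20 and KRT5 at -0.05.

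The close relatives of the set differed among themselves. In the STEAP family 2 of 4 were higher and 0 lower, and STEAP4 stood at 1.18 and 10.8 CPM, a log2 ratio of 3.20. STEAP1, named after its values were seen, stood at 1.03 and 8.47 CPM, while STEAP1B had -0.12. Of 12 other kallikreins 11 were measured, 1 was higher and 8 lower, with a median of -2.85, and KLK8 stood at 16.6 and 0.924 CPM. The kallikreins expressed in RWPE1 were therefore KLK8, KLK5 and their neighbours and not the prostate secretory ones. Of 11 other HOX genes 10 were measured, 4 were higher and 1 lower, with HOXB7 at 12.1 and 31.3 CPM. Of 12 transmembrane serine proteases and their inhibitors 1 was higher and 4 lower, with ST14 (matriptase) at -0.79.

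Of 18 other secretory products of prostate 11 were measured, 3 higher and 3 lower. SLPI went from 61.0 CPM in RWPE1 to 1257 CPM with ERG and mAKT (log2 ratio 4.36), and LCN2, lipocalin 2, had -1.04. Of 12 epithelial surface glycoproteins 11 were measured, 3 higher and 1 lower, the 3 being CD24 itself, the tetraspanin CD9 at 1.10 and PSCA, prostate stem cell antigen, at 1.08. Markers of other cells also moved between the libraries, where 12.5% of all measured genes were higher and 23.5% lower. Of 8 measured hillock and club genes 4 were higher and 2 lower. The 2 lower were the hillock keratins KRT13, at 215 and 7.04 CPM, and KRT4, at 14.6 and 0.289 CPM. KRT6A, among the higher, stood at 167 and 2378 CPM. Of 10 interferon genes 6 were higher and 1 lower (IFIT3, at -1.24). Of 10 stress and dissociation genes 6 were higher, and 0 of 10 mitosis genes were past the fold either way. Of 6 fibroblast genes 3 were measured, 1 higher and 1 lower, and the higher was DCN, decorin, whose UMIs numbered 44 (34 cells) for RWPE1 against 5196 (2398 cells) for RWPE-ERG-mAKT, a log2 ratio of 6.66. The part of these markers in the values of the luminal genes was not tested.

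**Figure D5:**
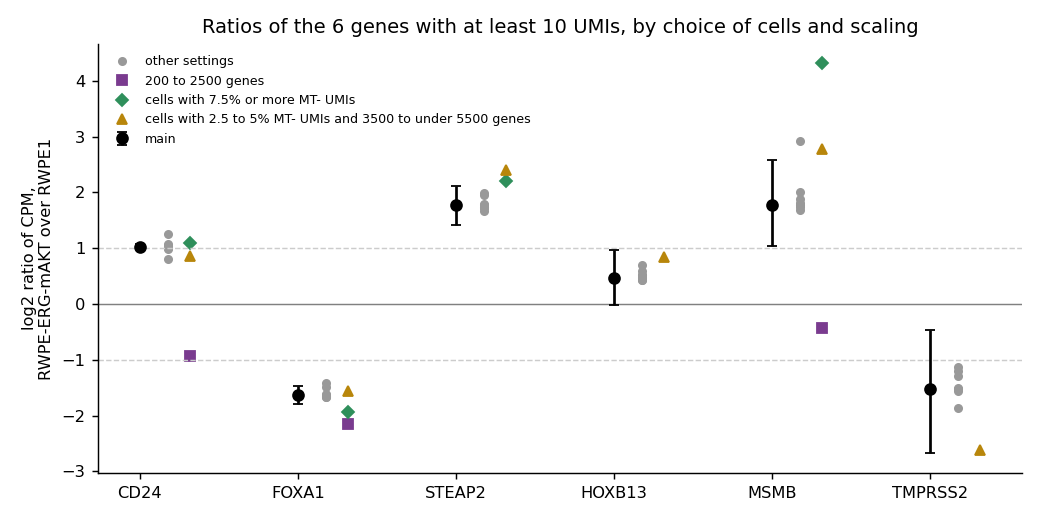
Log2 ratio of CPM, RWPE-ERG-mAKT over RWPE1, for the 6 genes with at least 10 UMIs, with counting 95% intervals for the main setting (black), 3 other choices of cells (coloured) and all remaining settings (grey), dashed lines marking 2-fold; settings with 0 UMIs in a library are not drawn. FOXA1 stays below 0 and STEAP2 above 0 in every setting drawn, while CD24 lies at -0.94 and MSMB at -0.42 in cells with 200 to 2500 genes.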

How the data were processed

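The labels give 10x Genomics Chromium 3′ v3.1 libraries of trypsinized cells. The deposited values are whole-number UMI counts of each gene in each barcode, with no normalization. The submitters' processing notes name Cell Ranger 7.1.0 and the build hg38. Whether intron reads were counted is not given in the sources used here.

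Cells with over 2500 detected genes and under 7.5% UMIs of the 13 mitochondrial genes were kept. The study's methods name 200 to 2500 genes, which was run as an alternative. UMIs were summed per library as CPM with exact Poisson intervals, ratios carry the exact conditional binomial interval, and shares the Clopper-Pearson interval, all at 95% and for counting error only. The depth of 192789925 and 225121037 UMIs puts the limit of 3 counts at 0.0156 and 0.0133 CPM. A gene was measured with at least 10 UMIs over both libraries and called past 2-fold. For shares, cells were thinned without replacement to 5000 UMIs. No test was made, with 1 library for each condition. The ratios and intervals were tested on simulated Poisson counts, so that test covers counting error only. The simulation did not include the uneven spread over cells seen for CD24.

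All 9 genes were named whatever their values. From each list up to 3 genes were named by size of log2 ratio among those with at least 10 CPM in a library, plus KRT8, KRT18, KRT5, TP63 and a few genes that are not reported here. Genes most like a member were sought only where 200 thinned cells of each library held it, which CD24 met, among genes with at least 50 UMIs in those cells. The genes and lists were chosen with earlier results of these data known. Genes named besides these, for background, keratin levels, spread and cells rich in CD24, were chosen after their values were seen. Barcodes called microglia or choroid plexus are those with at least 2 UMIs of microglia or choroid plexus genes. Positions are from GENCODE 29, which holds 34616 of 36601 gene identifiers, and promoters from RefSeq. Sums and intervals were computed with scipy 1.17.1, pandas 2.3.3 and numpy 2.4.6 under Python 3.11.15, and plots with matplotlib 3.10.9.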

Additional observations from a re-analysis of the deposited data

How the results depend on the processing

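FOXA1 was lower in every setting run, with log2 ratios from -2.15 to -1.41, and STEAP2 was higher in every setting with UMIs in both libraries, from 1.67 to 2.40. HOXB13 ranged from 0.43 to 0.84 and CD24 from -0.94 to 1.25. In cells with 200 to 2500 genes the direction turned for CD24 (-0.94), MSMB (-0.42, from 1 and 9 UMIs), PSCA (-2.40), SPRR1B (-1.59), STEAP4 (-0.48) and the STEAP family median (-0.58). In cells with 7.5% or more mitochondrial UMIs it turned for SPRR1B (-0.48). Of genes under 2-fold, the sign changed for CD68 (-1.05), SPINT1 (-0.63) and PRSS8 (-0.51) in the former cells, for KRT19 (0.19), MKI67 (0.14) and MCM5 (-0.12) in the latter, and for KRT5 (0.17) and STEAP1B (0.10) with median-of-ratios scaling. The causes were not tested.

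The 200 to 2500 gene cells left 7 of the 9 genes at or under 10 UMIs, 0 higher and 1 lower, with 1966 of all genes higher and 2876 lower. The cells with 7.5% or more mitochondrial UMIs left 5 genes at or under 10 UMIs and 3533 of all genes lower, and the matched cells 1 of the 9 genes lower and 3651 of all genes lower. These settings hold fewer UMIs. A minimum of 100 UMIs gave 1 of the 9 genes lower, 1991 of all genes higher and 3384 lower, and no minimum 4 of the 9 lower and 4894 of all genes higher. Genes found in at least 1% of RWPE-ERG-mAKT cells were 3 at 10000 UMIs, 3 without thinning and 2 without the mitochondrial filter. No paired analysis was possible because each condition has 1 library, and for the same reason no replicate could be left out. MSMB ranged from -0.42 to 4.31 and TMPRSS2 from -2.62 to -1.13, and depth limits both, HOXB13 and the kallikreins.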
